A study of Mus musculus with 10 samples.

Results

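Of 24550 consensus ATAC regions on chromosomes 1 to 19 of mouse sperm, 1803 (7.34%) lay wholly inside a protein-coding gene that the GENCODE M21 annotation gives a length of 500 kb or more. There were 218 such genes, with a summed length of 185.7 Mb when overlaps are counted once. The regions came from merging the peak intervals of 10 libraries wherever they overlapped by at least 1 bp, and a region was kept when at least 2 libraries had a peak in it. ATAC-seq uses the Tn5 transposase, which inserts sequencing adapters where DNA is exposed, so that a peak marks a stretch cut more often than its surroundings.

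The sperm came from the cauda epididymis of wild type C57BL/6JRccHsd males. From 4 weeks of age the mice received either the chow control diet (F0 CD) or a Western diet rich in fat and carbohydrate (F0 WD) for 6 months, and the study asked whether paternal obesity alters sperm chromatin accessibility. Each library was made from 1 mouse, with 6 F0 CD and 4 F0 WD libraries according to the sample titles, whereas the protocol text gives these numbers the other way round. The deposited lists held 13366 to 29532 peak intervals per library, the longest being that of F0 CD replicate 2, and no batch was given in the labels. The reads that called peaks rest on are few: at 6403 of the 6433 member summits, those whose reads could be solved, there were 9 to 68 reads (median 17), the strongest summits being left out. The weakest member summit in each library had 9 to 13 reads. None of the 8 spermatid marker genes (such as Prm1 and Tnp1) had a peak within 1 kb of a start site in any library, against 2 of 8 epididymal and 3 of 8 leukocyte genes, each in at most 2 libraries.

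Very long genes consist mostly of introns, and many of them encode adhesion molecules, channels and synaptic scaffolds of neurons. Their sequence tends to be AT-rich, they are often replicated late, and several coincide with common fragile sites, where chromosomes break under replication stress. In mature sperm most histones have been replaced by protamines, and little or no transcription takes place.

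The sequences under the strongest summits showed what these regions were made of. Each line gives 81 bases centred on the strongest summit of a region, from the plus strand of GRCm38 (mm10), with uninterrupted stretches of 10 or more CA units or TG units (here called runs) in capitals. CA on one strand is TG on the other, so these letters cover both strands. The first 5 are regions found in all 10 libraries, the next 2 and the 2 after them are regions found more often in F0 WD and in F0 CD respectively, and the last lies in the gene with the most regions per Mb and was chosen after its values were seen.
Nkain3 chr4:20191858-20191938: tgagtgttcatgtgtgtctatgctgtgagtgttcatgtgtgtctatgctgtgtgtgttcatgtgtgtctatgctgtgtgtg
Dlgap2 chr8:14306853-14306933: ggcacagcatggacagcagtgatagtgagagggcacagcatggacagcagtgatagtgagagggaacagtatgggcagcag
Cntnap5c chr17:57855981-57856061: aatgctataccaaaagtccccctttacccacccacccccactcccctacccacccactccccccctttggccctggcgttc
Robo1 chr16:72629941-72630021: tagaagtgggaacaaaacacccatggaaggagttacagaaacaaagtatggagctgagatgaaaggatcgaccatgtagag
Mctp1 chr13:76590914-76590994: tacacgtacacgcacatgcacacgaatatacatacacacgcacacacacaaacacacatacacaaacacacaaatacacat
Dlg2 chr7:91347800-91347880: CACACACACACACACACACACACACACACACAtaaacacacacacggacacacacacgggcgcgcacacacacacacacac
Npas3 chr12:53425164-53425244: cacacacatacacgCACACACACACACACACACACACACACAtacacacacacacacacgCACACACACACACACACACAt
Frmd4a chr2:4222704-4222784: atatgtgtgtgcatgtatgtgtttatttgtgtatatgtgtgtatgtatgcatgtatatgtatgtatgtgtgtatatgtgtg
Dlgap1 chr17:70708928-70709008: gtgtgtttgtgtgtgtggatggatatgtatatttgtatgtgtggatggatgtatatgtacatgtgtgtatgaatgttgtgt
St6galnac3 chr3:153704938-153705018: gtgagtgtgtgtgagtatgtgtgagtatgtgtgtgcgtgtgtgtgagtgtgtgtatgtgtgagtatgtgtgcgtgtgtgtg

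All of these windows lay in intronic regions, and most consisted of repeated units. Moved along itself by its best shift of 2 to 40 bases, a window matched at 64.7 to 98.2% of its bases, except for those of Cntnap5c (50.8%) and Robo1 (41.8%). In the Nkain3 window 98.2% of the bases equalled the base 25 positions further on, and in the Dlgap2 window 94% equalled the base 31 positions on, although none of the Dlgap2 region is repeat-masked in the reference. The middle 31 bases of the Nkain3 window occurred once in the reference, and those of Dlgap2 occurred 4 times, always inside the region itself. By contrast, the middle 31 bases of the Cntnap5c window occurred 8530 times on the 21 chromosomes those of the Robo1 window 1618 times and those of the Npas3 window 8607 times. The alignment allowed several placements per read, and how far reads from other copies entered these peaks was not tested. The Frmd4a and Dlgap1 windows held interrupted TG repeats that fell short of 10 units, and the middle of each occurred once. Over its whole width the Dlgap1 region did hold a run, of 17 units, while the longest stretch in the Frmd4a region was 4 units. The Malrd1, Elmo1 and Kcnma1 regions came before Dlgap1 by p and rank, and their windows are not printed. The longest stretches in these regions were 7, 21 and 18 units.

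Such a run was present in 938 members, or 52.0%. Of 525061 windows of 354 bp, the median width of a member, laid end to end over the same genes, 3.82% held such a run. The genes had 21849 runs in all, and 4.29 members with a run were found per 100 runs. Of the 1803 members 1706 (94.6%) were intronic, 69 (3.83%) lay within 1 kb of a start site of any gene and the other 28 (1.55%) overlapped an exon.

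The long genes differed widely in how many regions they held. The median gene had 8.12 regions per Mb, the middle 50% of genes lay between 4.00 and 13.2, and the range ran from 0 to 43.7. The 10 richest genes held 248 members, or 13.8% of all in 4.22% of the summed gene length, while the 50 poorest held 100 members (5.55%) in 23.7% of the length. Below, each density is followed by its exact 95% Poisson interval, which covers counting error only.

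**Figure D1:**
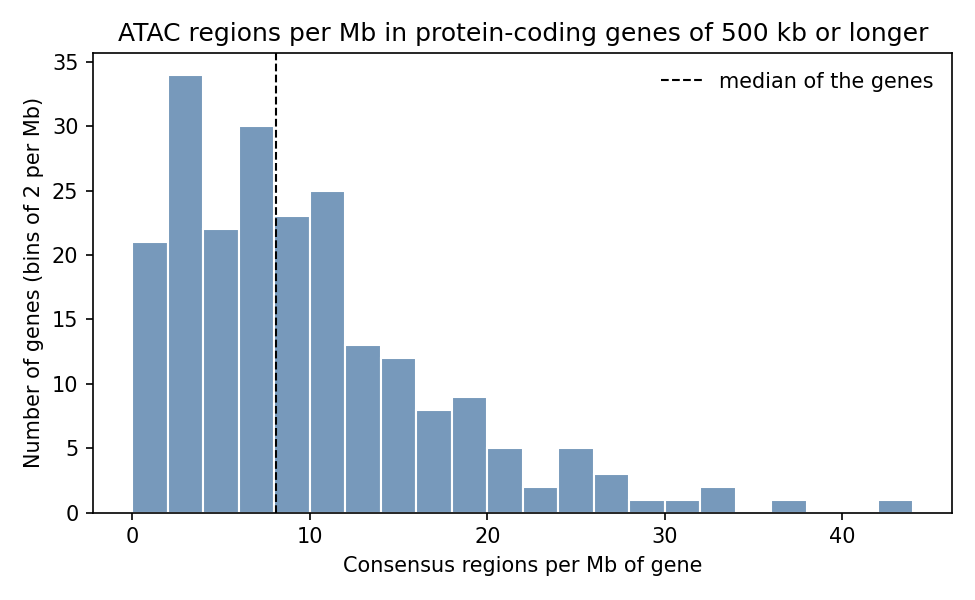
Consensus regions per Mb of gene for the 218 protein-coding genes of 500 kb or longer, counted in bins of 2 per Mb, with the median of 8.12 as a dashed line. Most genes lie under 13.2 per Mb and 21 genes lie above 20.

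With at least 2 libraries required, the richest gene was St6galnac3, which encodes a sialyltransferase (chr3:153198266-153725174), with 23 regions in 527 kb or 43.7 per Mb (27.7 to 65.5). In it the F0 CD libraries detected 6 to 12 regions (median 7.5), and the F0 WD libraries 13, 8, 11 and 5. The 1 region of the gene found in every library had a fold enrichment (reads at the summit over local background, with a pseudocount of 1 read) of 3.08 to 5.65. Cdh13, which encodes the atypical T-cadherin (chr8:118283733-119324921), followed with 39 regions or 37.5 per Mb (26.6 to 51.2). The SoxD transcription factor gene Sox5 (chr6:143828425-144781977) had 33.6 per Mb (23.0 to 47.4), and Rbms3, whose product binds RNA, had 32.2 (22.3 to 44.9). The intervals of these 4 genes overlap, so their order is not resolved by the counts. Among the 44 named genes the first place also changed with the number of libraries required: with 3, Cdh13 had 24.97 and St6galnac3 24.67 regions per Mb, and with 1, Camta1 had 112.2 and St6galnac3 108.2.

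A further 5 of the 10 richest genes lay between 25.5 and 28.0 per Mb. Esrrg, an orphan nuclear receptor gene, had 28.0 and L3mbtl4 had 27.7. Sdk1, an adhesion gene of the sidekick family, had 26.7, the calmodulin-binding transcription activator gene Camta1 had 26.5 and the ankyrin-G gene Ank3 had 25.5. Between 6 (Ank3) and 20 (Cdh13 and Sox5) of the regions of each of the 10 richest genes held a CA or TG run.

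At the other end, 9 genes held no consensus region at all. Sntg1 (gamma-1 syntrophin, chr1:8361475-9299878) is 938 kb long, so a count of 0 allows up to 3.20 regions per Mb there, taking 3 counts as the limit. The others were Ralyl, Fgf14 (a regulator of sodium channels), Grik2 (a kainate receptor subunit), Galnt13 (an enzyme that starts O-glycosylation), Zfp804b, Grm5 (a metabotropic glutamate receptor), Skint5 and Rad51b, with limits of 4.22 to 5.80 per Mb. Next came Sgcz, the zeta-sarcoglycan gene, with 1 region in 1139 kb, or 0.878 per Mb (0.0222 to 4.89). These genes were not free of peaks: with regions of a single library counted too, the 9 genes held 5.75 (Skint5) to 27.9 (Galnt13) regions per Mb, against 108 in St6galnac3.

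Length alone did not order the genes. At the limit of 500 kb, the genes just inside it (Edil3, Dock1 and Car10) had 1.99, 17.9 and 9.93 regions per Mb, and those just outside (Cacna1e, Dnm3 and Pde1c) had 6.08, 14.1 and 6.01. The longest annotated genes were Gm20388 at 4435 kb, Fgfr2 at 2961 kb, and the cell adhesion genes Ptprd, Cntnap2 and Lsamp at 2197 to 2271 kb. Gm20388 had 25.0 regions per Mb (20.6 to 30.1), but this gene model spans 71 other protein-coding genes. Fgfr2, a fibroblast growth factor receptor gene whose annotation here encloses 29 others, had 11.8 (8.23 to 16.4). Ptprd, a receptor tyrosine phosphatase gene, had 3.96 (1.81 to 7.52), Cntnap2 had 4.45 (2.14 to 8.19) and Lsamp had 3.19 (1.28 to 6.56). In all, 6 of the long genes span 5 or more other protein-coding genes, and 162 members lay inside these 6.

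The listed gene families are given by their counts and medians. Of the 46 adhesion genes listed, 39 were long autosomal genes, with a median of 7.83 regions per Mb and 18 of them above the median of all long genes. The richest was Cdh13 and the poorest Cntnap5a (2.22). Of 40 channel and receptor genes, 20 were long, with a median of 6.44 and 8 above, from Grm5 and Grik2 at 0 to the ryanodine receptor gene Ryr2 at 18.1. The 9 long genes among 23 signalling enzymes had a median of 10.7, with 7 above, from the diacylglycerol kinase gene Dgkb (3.67) to the kinase gene Mast4 (18.3). The 14 long genes among 31 nuclear factors had a median of 12.6, with 11 above, from Sox6 (1.76) to Sox5 (33.6). All 16 listed fragile site genes were long, with a median of 7.26 and 6 above, from Macrod2 (2.00) to the oxidoreductase gene Wwox (18.6). These medians describe the lists beside the 8.12 of all 218 genes, and no difference between lists was tested.

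Gene density went with base composition. Across the 218 genes the density correlated with the GC of the gene at a Pearson r of 0.67 and a Spearman rho of 0.72, with CA or TG runs per Mb at 0.62 and 0.66, with the density of regions in the 1 Mb on either side at 0.77 and 0.65, and with the repeat-masked share at -0.47 and -0.55. With gene length r was -0.04 and rho -0.09, and without the 6 spanning genes r was -0.16 and rho -0.11. Genes are not independent replicates and share the libraries, so these values are a description. Leaving out the 6 spanning genes, the 53 genes of lowest GC (35.2 to 38.0%) held 3.87 regions per Mb, the next classes of 53 genes each 7.15 and 11.2, and the 53 genes of highest GC (42.5 to 48.9%) 17.5. In these 4 classes the share of members with a CA or TG run was 54.1%, 52.4%, 55.8% and 49.3%. The rate of members with a run per 100 runs in the genes was 2.08, 3.46, 5.19 and 5.87.

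**Figure D2:**
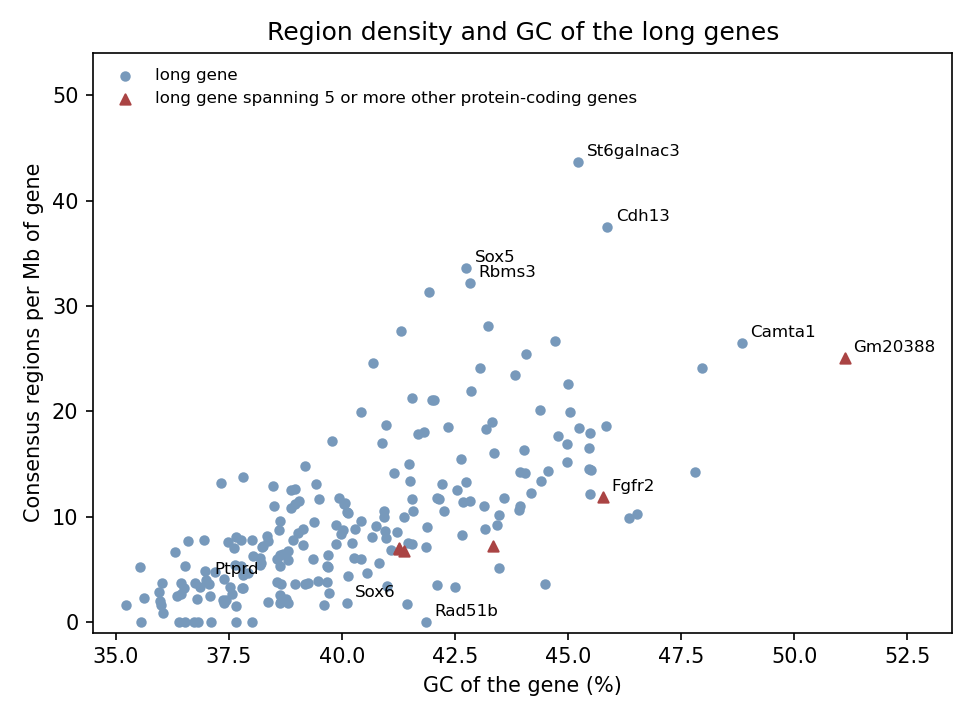
Consensus regions per Mb of gene against the GC of the gene, with 1 point for each of the 218 long genes and triangles for the 6 genes that span 5 or more other protein-coding genes. Density is higher at higher GC (rho 0.72), with genes such as Rad51b at 0 per Mb and 41.9% GC and Sox6 at 1.76 per Mb and 40.1% GC lying far below others of like GC.

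Regions were sparser in the very long genes than in genes of 100 to 500 kb, which held 4844 regions at 11.9 per Mb against 9.71 per Mb. In the F0 CD libraries the members detected per Mb were 2.68 at the lowest, 3.30 at the median and 5.52 at the highest, and in the F0 WD libraries they were 3.84, 3.54, 3.51 and 2.05. The genes of 100 to 500 kb had 3.48 to 6.78 per Mb in the F0 CD libraries and 2.74 to 4.50 in the F0 WD libraries. Every library thus had fewer regions per Mb in the longest genes, while the ranges of both diets overlapped. The mean log2 ratio was -0.31 ± 0.0658 (SD, n = 10 libraries), a ratio of 0.807, with a two-sided exact sign-flip permutation p of 0.00195, the smallest that 10 libraries allow. The libraries share 1 genome and 1 set of regions, so p covers the spread between libraries and not between genes.

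The direction turned when genes were compared within classes of GC. The very long genes had a GC of 40.4%, against 42.7% for genes of 100 to 500 kb. Within 4 classes of gene GC, weighted by the length of the long genes, the long genes without the 6 spanning ones held more regions per Mb, at a mean log2 ratio of 0.23 ± 0.0676 (SD), or 1.18-fold, in 10 of 10 libraries (exact sign-flip permutation p = 0.00195). From the lowest to the highest class the log2 ratios were 0.09, 0.45, 0.34 and 0.07, with exact permutation p of 0.25, 0.00195, 0.00195 and 0.00195. The lowest class had this direction in 8 libraries and each other class in all 10. Mean GC of the long and the shorter genes was 37.0% and 37.1% in the lowest class. In the highest class it was 44.3% and 45.9%, so GC was least alike there. The comparison within GC classes was added after the data had been seen.

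**Figure D3:**
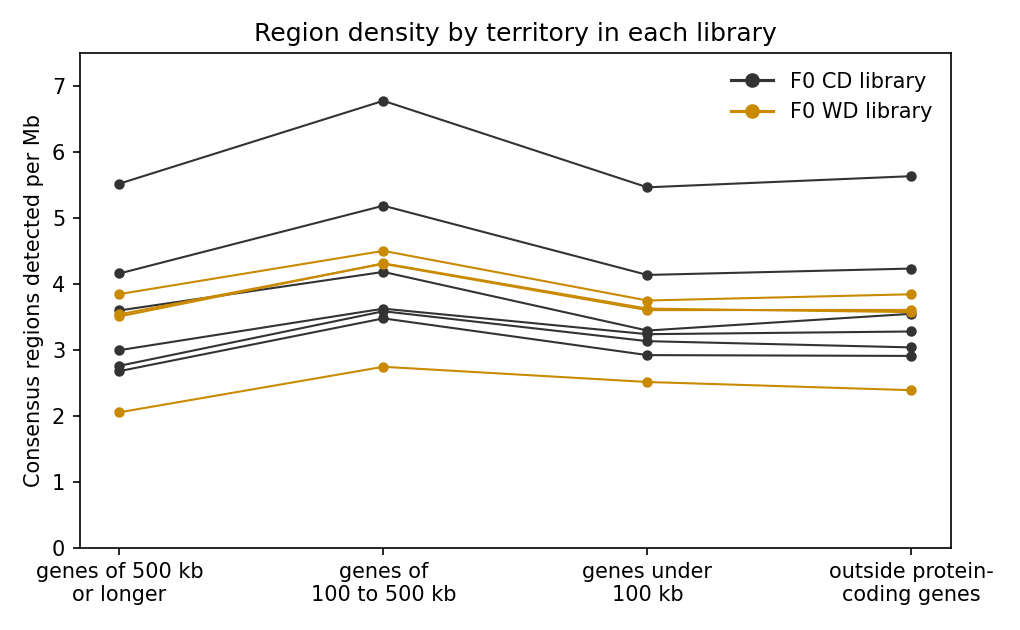
Consensus regions detected per Mb in each of the 10 libraries, in very long genes, in genes of 100 to 500 kb, in genes under 100 kb and outside protein-coding genes, with 1 line per library. Every line is higher at genes of 100 to 500 kb (2.74 to 6.78 per Mb) than at very long genes (2.05 to 5.52), and the lines of both diets overlap.

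Against the sequence outside protein-coding genes (13779 regions, 9.80 per Mb) the density in long genes was lower by a mean log2 of 0.07 in 8 of 10 libraries, with values of -0.22 to 0.02 (SD 0.0772, exact sign-flip permutation p = 0.00781). The F0 WD replicate 4 library gave the lowest of these values. This library and F0 CD replicates 1, 3 and 5 had the fewest regions (5873 to 7950) and log2 ratios of -0.219 to -0.119. In the other libraries, with 8685 to 13901 regions, the log2 ratio was -0.0294 to 0.0206. Why the ratio went with the number of regions was not tested. Over bases that are not repeat-masked the mean log2 ratio to the outside sequence was -0.28 (exact p = 0.00195), as 38.0% of the outside sequence is masked against 28.4% of the long genes. Against genes under 100 kb (10.2 regions per Mb) the log2 ratio was -0.06 ± 0.121 (SD), lower in 6 of 10 libraries with an exact p of 0.156.

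The members held more repeated sequence than regions in genes of 100 to 500 kb. A CA or TG run was present in 55.3% ± 2.57 (SD, n = 10) of the members a library detected and in 51.2% ± 1.55 of the regions in the shorter genes, a difference of 4.09 ± 2.03 percentage points in 10 of 10 libraries. Repeat-masked bases made up 68.8% ± 2.43 of the members and 63.6% ± 2.36 of the others, a difference of 5.20 ± 0.799 points. GC was lower by 1.59 ± 0.216 points in the members (44.9% against 46.5%). Median fold enrichment was 4.14 ± 0.404 against 4.04 ± 0.385, a difference of 0.10 ± 0.0786. Each of these 4 differences had the same sign in all 10 libraries and an exact sign-flip permutation p of 0.00195. Regions outside protein-coding genes were close to the members in masked share and GC, counted over the whole set and without a test. They had 61.7% masked bases against 62.6% and a GC of 45.9% against 45.3%, while 47.0% against 52.0% held a run.

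Counted over the whole set and without a test, long genes held 5.05 regions with a run and 4.66 without one per Mb, and the genes of 100 to 500 kb 5.64 and 6.25. Runs themselves were about as frequent in both, at 117.6 and 114.6 per Mb. No preference for the first 10% of the gene was found. That part held 9.81% ± 0.655 (SD, n = 10) of the detected members, -0.19 percentage points from an even spread (exact sign-flip permutation p = 0.367). In genes of 500 kb or longer that part is far wider than 1 kb, so a preference close to the start site was not tested. With the genes cut into 10 equal parts, a part held 144 to 212 members.

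Detection thinned out quickly over the libraries. Of the members 827 (45.9%) were found in 2 libraries, 308 in 3 and 27 (1.498%) in all 10, against 2.12% of the other autosomal regions for the latter. In genes of 100 to 500 kb this last share was 1.590%, so a low share was not particular to the longest genes. The share was higher in genes under 100 kb and outside protein-coding genes, and no difference was tested. Members found in more libraries were wider, with a median of 300 bp for those in 2 libraries and 618 bp for those in all 10. Their masked share went from 50.01% in 2 libraries to 85.1% in 8 and 77.0% in all 10. Merging more intervals widens a region by construction. A further 6260 regions in these genes had a peak in 1 library and were left out, with a median fold of 3.72 against 3.95 for the members in 2 libraries.

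The 27 members found in every library lay in 25 genes, all were intronic, and 15 held a CA or TG run. The most enriched lay in Nkain3, whose product interacts with the sodium pump (chr4:20191747-20192060, 587 kb from the start of the gene). Its fold enrichment was 20.95 at the lowest, 24.4 at the median and 28.9 at the highest in the F0 CD libraries, and 25.7, 30.0, 25.2 and 23.1 in the F0 WD libraries. The diets overlapped throughout. In Dlgap2, a postsynaptic scaffold gene (chr8:14306684-14307196, GC 55.4%), fold enrichment was 12.4 to 19.2 in F0 CD and 17.2, 15.5, 14.8 and 14.5 in F0 WD. The Cntnap5c region (chr17:57855864-57856178, 81.3% masked) had 14.5 to 21.3 over the 10 libraries.

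Robo1 encodes a receptor for Slit guidance cues, and its region (chr16:72629823-72630133) was masked over its whole width. It had fold enrichments of 6.07 to 14.1 in F0 CD and 13.2, 9.97, 23.2 and 14.4 in F0 WD. Its summits held 20 to 68 reads in the 9 libraries where these could be solved, which do not include F0 WD replicate 3 with the fold of 23.2. The Mctp1 region (chr13:76590720-76591114) had 5.71 to 10.3 over all libraries. These 5 members were the only ones of the 27 with a fold above 10 in any library, and the others had at most 8.87. With Dlgap2, the regions in Kalrn (chr16:33983684-33984208, 8.95% masked) and Slc9a9 (chr9:94837417-94838021, 3.64%), named after their values were seen, were the 3 members of the 27 with under 10% masked bases.

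No difference between the diets was found in the share of regions that lay in long genes. The members made up 6.82% at the lowest, 7.17% at the median and 7.69% at the highest of the autosomal regions of an F0 CD library. In the F0 WD libraries they made up 7.55%, 7.36%, 7.32% and 6.49%, so that the groups overlapped. The mean of F0 WD less that of F0 CD came to -0.012 percentage points, with a standard error of 0.273 (two-sided exact permutation p = 0.957 over all 210 splits). In a library of many sperm cells, fewer cells open at a site and less opening per cell cannot be told apart. Without F0 WD replicate 4 the difference was 0.275 points (exact permutation p = 0.25), and without F0 CD replicate 2, 4 or 6 it was 0.0580, 0.0774 and 0.0333. The share also went with the number of regions a library detected. In F0 WD replicate 4 and F0 CD replicates 1, 3 and 5, with 5873 to 7950 regions, the share was 6.49 to 6.99%. In the other libraries, with 8685 to 13901 regions, it was 7.32 to 7.69%. With 13224 peaks from every list the difference between diets was -0.0766 points (exact permutation p = 0.781).

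**Figure D4:**
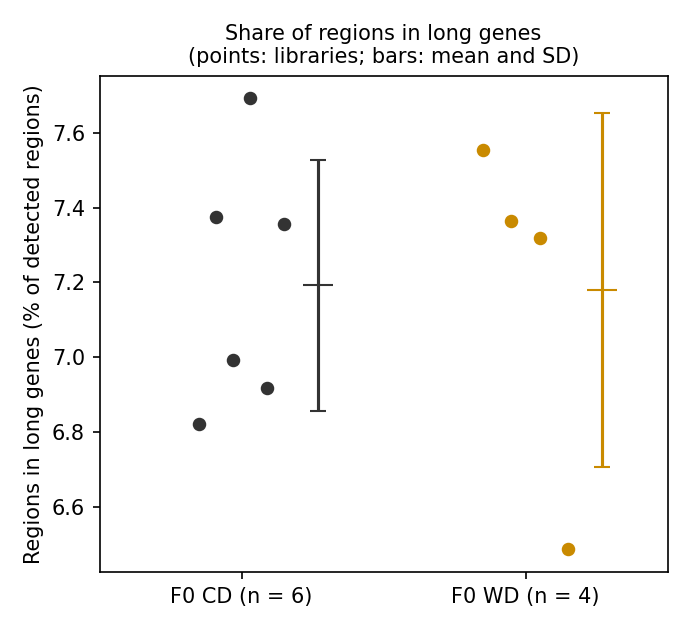
Regions inside long genes as a percentage of all autosomal consensus regions a library detected, with 1 point per library and the mean with its SD beside them. The 6 F0 CD libraries lie between 6.82% and 7.69% and the 4 F0 WD libraries between 6.49% and 7.55%.

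Of the members 1326 (73.5%) were found in both diets, 392 in F0 CD alone and 85 in F0 WD alone. The other autosomal regions were divided alike, with 72.7% in both, 22.0% in F0 CD alone and 5.34% in F0 WD alone. With 6 libraries against 4, more regions can reach 2 libraries within F0 CD.

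Few members were called as differing in detection between the diets. For the 827 members (45.9%) found in only 2 libraries, the test used here cannot reach an unadjusted p under 0.05. By Fisher's exact test on libraries with and without a peak, 12 members were detected more often in F0 WD at an unadjusted p under 0.05 (0.666%, against 0.558% of all 24550 autosomal regions) and 7 more often in F0 CD (0.388%, against 0.473%). Together these 19 members made up 1.05%, against 1.03% of all regions. None had an adjusted p under 0.05, as the Benjamini-Hochberg adjusted p was 1 for every region. The smallest exact p the design allows is 0.00476. Over 24550 regions, an adjusted p under 0.05 would need very many regions at so low a p, so this outcome says little about the diets. By mid-p, 16 members towards F0 WD and 19 towards F0 CD passed an unadjusted 0.05. Members called towards F0 WD numbered 19 when F0 CD replicate 2 was left out, 20 when F0 CD replicate 6 or else replicate 4 of F0 WD was left out, and 7 when replicate 2 of F0 WD was. Those called towards F0 CD numbered 16, 14, 18 and 11 when F0 CD replicate 1, 3, 5 or 6 was left out, and 11 when replicate 2 of F0 WD was. The share of all regions called was not worked out by mid-p or with a library left out. Mid-p and a library left out also change which patterns of detection can reach an unadjusted p under 0.05. Counts can rise or fall for that reason alone. These counts therefore show only how far the calls moved.

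The smallest p the design allows, 0.00476, was reached by 1 member. It lay in Frmd4a, a FERM domain gene (chr2:4222584-4223120, in an intron 205 kb from the start), and was detected in all 6 F0 CD libraries and in no library of F0 WD. Its fold enrichments were 4.28, 4.75, 2.85, 3.46, 4.6 and 3.24 in the F0 CD libraries, on 24, 18, 15, 12, 22 and 15 reads. The weakest member summits of the F0 WD libraries held 9 to 12 reads, so the lack of a peak there does not show a lack of reads. The Malrd1, Elmo1 and Kcnma1 regions, the last in the gene of the BK potassium channel, were detected in every F0 CD library and in 1 F0 WD library (exact p = 0.0333 each). The single F0 WD folds there, 5.34, 5.13 and 4.67, lay within the F0 CD ranges of 2.95 to 7.42, 3.05 to 5.20 and 2.92 to 5.26. The regions in Dlgap1, Egfem1 and Dscam were detected in 5 of the F0 CD libraries and never in F0 WD (exact p = 0.0476).

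Among the 12 members found more often in F0 WD, 8 were found in 3 of the F0 WD libraries and never in F0 CD (exact p = 0.0333), and no member was found in each F0 WD library while lacking from F0 CD altogether. The first by rank lay in Dlg2, which encodes the synaptic scaffold PSD-93 (chr7:91347635-91348059). It had folds of 4.65, 5.47 and 4.46 in F0 WD replicates 1, 2 and 4, where the summits held 19, 16 and 20 reads. The region in Npas3, a transcription factor gene (chr12:53425088-53425391), had 5.11, 3.86 and 5.06 in replicates 1, 2 and 3, with 21, 11 and 16 reads. Regions in Mctp1, Arhgap15 and Gm20388 followed, with folds of 3.25 to 5.14. Over all 12 the folds were 2.75 to 5.47 on 10 to 24 reads, and over the 7 found more often in F0 CD they were 2.85 to 7.42 on 12 to 27 reads, around the median of 17 reads over the members' summits. A CA or TG run was present in 9 of the 12 and in 3 of the 7, and all 19 were intronic.

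**Figure D5:**
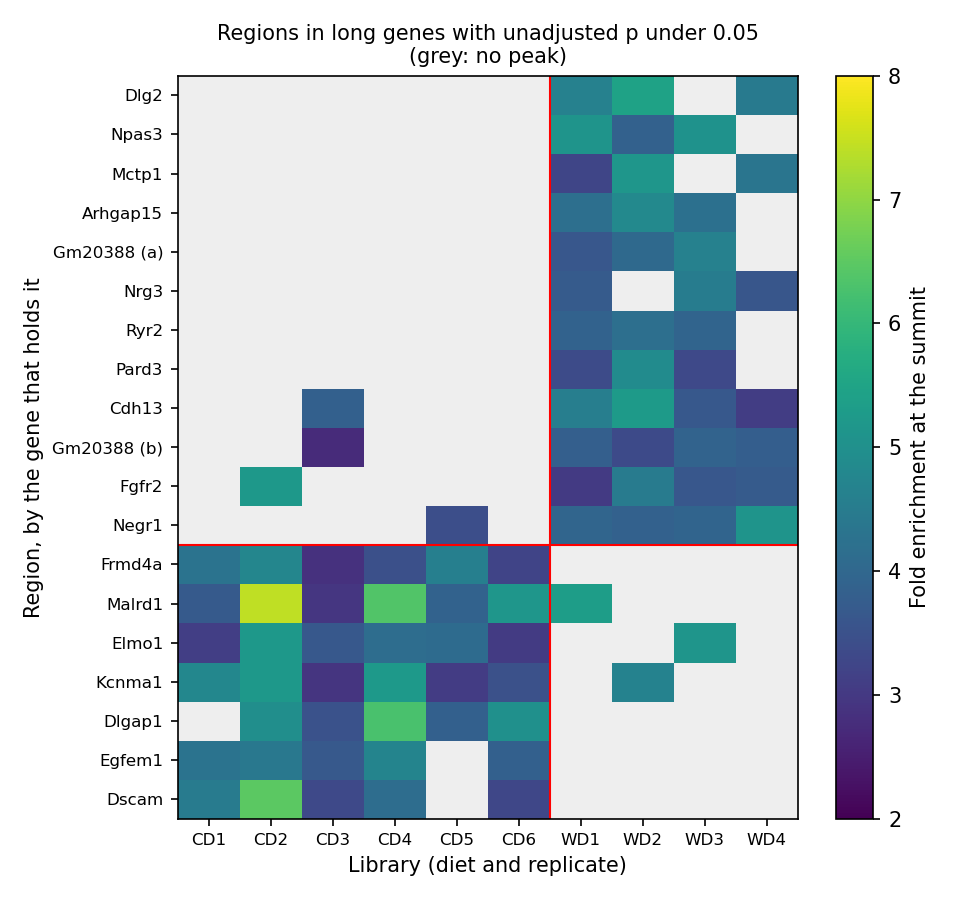
Fold enrichment at the summit of the 19 members with an unadjusted p under 0.05, in each of the 10 libraries, with grey where a library has no peak. The 12 regions above the horizontal line were detected more often in F0 WD (folds of 2.75 to 5.47) and the 7 below it more often in F0 CD (2.85 to 7.42).

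Diet was also compared gene by gene, as the share of a library's regions that lay in the gene, for the 143 long genes with at least 5 regions. At an unadjusted p under 0.05, 8 long genes had a higher share in F0 WD and 3 a higher share in F0 CD. Of all 472 genes tested, which include these 143, the numbers were 17 (3.6%) and 14 (2.97%). Both directions together made up 7.69% of the long genes tested, against 6.57% of all genes tested. No gene had an adjusted p under 0.05, the lowest for a long gene being 0.482 after Benjamini-Hochberg adjustment of the exact permutation p over all 472 genes. Of the 8 genes, 3 (Gm42416, Gm37013 and Gm37388) are nested gene models at the protocadherin cluster and hold the same 6 regions.

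In Fgfr2 the F0 CD libraries detected 7 to 15 regions (median 10.5) and the F0 WD libraries 18, 10, 19 and 11, which was 0.115% and 0.176% of their regions on average (exact permutation p = 0.0143). As 29 other genes lie inside this gene model, these regions are not specific to the receptor gene itself. Ctnnd2, the delta-catenin gene, had 0.0689% in F0 CD and 0.0873% in F0 WD (exact p = 0.0190), and Ctnna2, an alpha-catenin gene of neurons, had 0.0169% and 0.0349% (exact p = 0.0333). The potassium channel subunit gene Kcnip4 had the same p, with 0.0141% and 0.0249%. The lowest p of all long genes belonged to Lrmda, with 3 to 6 regions in F0 CD and 3, 3, 3 and 1 in F0 WD, or 0.0474% and 0.0290% (exact p = 0.00952). Frmd4a, with 0.0613% and 0.0346%, and the nuclear receptor gene Rora, with 0.0530% and 0.0345%, each had an exact p of 0.0190. Frmd4a and Fgfr2 also held a region called in the same direction, from the same libraries.

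The number of genes called moved with single libraries. Towards F0 WD, leaving out F0 CD replicate 1 or 5 gave 2 genes, replicate 4 or 6 gave 3 and replicate 2 gave 5, while leaving out F0 WD replicate 1, 3 or 4 gave 3, 2 and 5. Towards F0 CD, leaving out F0 CD replicate 4 or 6 gave 1 gene and leaving out F0 WD replicate 4 gave 0.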

How the data were processed

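Sperm of 6 F0 CD and 4 F0 WD males was analysed by ATAC-seq, 1 library per mouse. The authors' reads went through Trim Galore 0.6.10 and Bowtie2 2.4.5 on mm10, with several placements allowed per read. Duplicates (Picard 2.24.0) and low-quality alignments were dropped, only short fragments were kept, and MACS2 2.2.7.1 called peaks in each library separately at q 0.05. In the deposited lists the score is the integer score of MACS2, the fold enrichment is a ratio at the summit, and the p and q values are −log10 values of the authors. Score was not used. Fold was tested only within a library, and the DESeq2 test of the study was not repeated, since the lists hold no read counts.

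Genes came from GENCODE M21 and sequence from RefSeq's GRCm38.p6, whose lower-case bases are repeat-masked. A run was 10 or more CA or TG units. Reads at a summit were solved from fold and p, and all 6403 summits with a −log10 p under 60 (of 6433 in members) came out whole within 0.002 of the −log10 p. Copies of the middle 31 bases of a window were counted on both strands of 21 chromosomes, and repeat shifts of 2 to 40 bases were compared.

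Densities and features were compared by exact two-sided sign-flip permutation over libraries, and shares by exact permutation over the 210 splits into diets. Detection was compared per region by Fisher's exact test over all autosomal regions, and genes with at least 5 regions by exact permutation, each with Benjamini-Hochberg adjustment over all of them. p-values cover the spread between single mice. The tests were checked on simulated data. Genes were named as the 10 richest, 10 poorest and 5 longest, the richest and poorest of each list and the 3 of lowest p in each direction, 1 of the 10 richest being not reported here. Regions were named as 5 found in all libraries by median q rank and 5 called in each direction. The regions, lists and tests were chosen with earlier results of these data known, so no list is independent support.

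Alternatives were a q under 0.01, merging within 100 bp, an overlap of at least 0.5 of the shorter interval with the best peak of the region (a peak always lies inside its merged region), 1 or 3 libraries required, limits of 300 kb and 1 Mb, any overlap with a gene, lists of equal length, unmasked length, a mid-p test, a replicate block and each library left out. Leaving out spanning genes and comparing within GC classes were added after seeing the data. Work was done in Python 3.11.15 with pandas 2.3.3, scipy 1.17.1, numpy 2.4.6 and matplotlib 3.10.9, and sequence was read by samtools 1.23.1 through pysam 0.24.0.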

Additional observations from a re-analysis of the deposited data

Results flagged for a closer look

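In F0 WD replicate 4 the log2 ratio of region density in long genes to that outside protein-coding genes was -0.219, far from the next value of the group, -0.0271. The gap to the nearest library made up 0.872 of the range of the 4 libraries, past Dixon's limit at 95%. This library also had the fewest regions in all (5873) and the lowest density in long genes (2.05 per Mb). Of 16 groups of libraries examined for single libraries standing apart this was the only one, and chance alone gives about 1 in 20. The F0 CD libraries with the fewest regions, replicates 1, 3 and 5, had ratios of -0.139 to -0.119.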

How the results depend on the processing

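The lower density of regions in long genes than in genes of 100 to 500 kb kept its direction and an exact p under 0.05 under each alternative but 1, the comparison within classes of gene GC, where the log2 ratio was 0.23. With genes of 1 Mb or longer, still against genes of 100 to 500 kb, the log2 ratio was -0.47. With genes of 300 kb or longer, against genes of 100 to 300 kb, it was -0.22. The differences in CA or TG runs, repeat-masked bases and GC kept their direction and an exact p under 0.05 under all alternatives run. The log2 density ratio to sequence outside protein-coding genes was -0.028 (exact permutation p = 0.262) with regions of a single library, -0.0652 (exact permutation p = 0.0527) with 13224 peaks from every list, and 0.0382 with genes of 300 kb or longer. The difference in fold enrichment was 0.063 (exact permutation p = 0.0781) with genes of 1 Mb or longer. The share in the first 10% of the gene, relative to an even spread, was 0.248 points with an overlap of 0.5, 0.519 with genes of 300 kb or longer, 0.156 with lists of equal length, and -0.945 (exact permutation p = 0.0117) with genes of 1 Mb or longer, and from -0.376 to 0.0716 with each library left out in turn. For these the cause was not tested.

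The difference between diets in the share of members turned positive with a q under 0.01 (0.0115 points), with 3 libraries required (0.116), and with genes of 300 kb (0.103) or 1 Mb (0.00919) or longer, and ran from -0.119 to 0.275 with each library left out in turn, where no exact p was under 0.25. With replicate numbers 1 to 4 as a replicate block it was -0.0399 (exact permutation p = 0.875, where 0.125 is the smallest possible). Deviations of libraries with the same number correlated at -0.0115 to 0.0337 and of those with other numbers at -0.0408 to 0.0494, so the numbers were not taken to pair the mice.

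Members called towards F0 WD numbered 7 to 20, and towards F0 CD 5 to 18, with each library left out in turn, and 6 and 0 with genes of 1 Mb or longer. Those towards F0 CD numbered 3 with lists of equal length and 19 by mid-p. Long genes called towards F0 WD and F0 CD numbered 2 to 7 and 0 to 4 with each library left out in turn, 5 and 1 with an overlap of 0.5, 2 and 0 with 3 libraries required, 5 and 5 with regions of 1 library, 14 and 5 at 300 kb, 3 and 1 at 1 Mb, and 1 and 1 with lists of equal length. Towards F0 CD there was 1 gene with a q under 0.01, and towards F0 WD there were 3 with intervals up to 100 bp apart merged and 4 without spanning genes. Alternatives that test fewer libraries or genes can call fewer for that reason. With a library left out or by mid-p, other patterns of detection can pass, so more regions can be called too. The share called of all regions or of all genes was not worked out at these settings, so the counts have no background beside them. The 44 named genes had fewer regions per Mb with 3 libraries required and more with 1, by construction, and the length limits leave their densities as they are.

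The weakest member summit of a library had 9 to 13 reads. The lowest local background at member summits was 2.46 to 4.42 reads in F0 CD and 2.11 to 3.71 in F0 WD libraries. A missing peak therefore cannot show that a region was closed.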

Other observations

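Of the 12 protein-coding genes of 500 kb or longer on chromosome X, with 11.0 Mb in all, 1 held a consensus region, giving 0.0906 regions per Mb against 9.71 on the autosomes. The region lay in Tenm1, which encodes a teneurin, while the dystrophin gene Dmd and the synaptic adhesion genes Il1rapl1 and Pcdh11x held none. Autosomes are present in each sperm cell and the X chromosome in a part of them. Whether this bears on the density was not tested, and the density of chromosome X was not compared further.

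Some long genes stood out in ways not used to choose them, and are named after their values were seen. Rad51b had no consensus region at a GC of 41.9%, a masked share of 25.1% and 101 CA or TG runs per Mb, while the 1 Mb on either side held 7.5 regions per Mb. Agbl4, a carboxypeptidase gene of 1267 kb, held 2 regions, and 1 of them was found in all 10 libraries. That region was 4.88 kb from a start site of the nested gene Bend5, wholly masked, and had folds of 3.46 to 5.31. Alk and Ntm each held 2 of the 27 members found in every library. Ntm had regions of 54.4% and 62.9% GC, and Alk had regions with runs of 28 and 31 units.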
